A study of Homo sapiens with 12 samples.

Results

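The VEGF family and adrenomedullin were followed in 2 human lines grown from colorectal carcinomas, SW480 and HCT116, after overexpression of USP51, a deubiquitinating enzyme. The 8 genes were chosen by name: the ligand genes VEGFA, VEGFB, VEGFC and PGF, the receptor gene FLT1, the co-receptor genes NRP1 and NRP2, and ADM, which encodes the vasodilator peptide adrenomedullin. Of these, 7 were among the 17818 genes of the expression table, and VEGFC was not analysed here. The groups were SW480 with USP51 overexpression, SW480 with vector (NC), HCT116 with USP51 overexpression and HCT116 with vector (NC), with 3 libraries each, 12 in all. Every group was cultured alike in serum-containing medium and received no further treatment, per the labels. The labels do not give the promoter of the construct or whether a line was 1 clone.

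VEGF ligands are secreted dimers that drive the growth and permeability of blood and lymphatic vessels through receptor tyrosine kinases on endothelial cells. Neuropilins carry no kinase of their own and act as co-receptors, both for VEGF ligands and for class 3 semaphorins, and carcinoma cells often express them. VEGFA and ADM are textbook targets of the hypoxia-inducible factor HIF1, and tumour cells are a main source of VEGFA in colorectal cancer.

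All values are the authors' mean of each group, because the columns of individual libraries carry codes that appear in no sample label, and columns were assigned by name only, not by their values. So no replicate spread, SD, n or p-value stands beside any value, and no difference below was tested against the spread between libraries. Which mean is USP51 and which is NC rests on reading the letters E and C in the column names as overexpression and control. Summed over all transcripts, the mean counts came to 15920306 estimated counts in SW480 with USP51, 15625249 in SW480 NC, 15506686 in HCT116 with USP51 and 15823540 in HCT116 NC. Levels are in TPM, a share of all transcripts that is scaled to transcript length. A ratio is of counts per total count, with USP51 over NC. The range in parentheses is its 95% exact Clopper-Pearson interval, which covers counting error only. It was computed on the rounded mean count of each group as if that came from 1 library. If all reads were independent, it would therefore be wider than the counting error of the 3 libraries together. It holds no spread between libraries. An interval that includes 1 does not show that a difference lay within the counting error of all reads. USP51 itself stood at 25.7 TPM in SW480 with USP51 and 0.513 TPM in SW480 NC, and at 40.8 TPM in HCT116 with USP51 while it was listed at 0 in HCT116 NC. Of 8 colon epithelial markers, 7 reached 1 TPM in SW480 and 6 in HCT116, with EPCAM at 381.7 to 411.3 TPM and KRT8 at 2904 to 4756 TPM across the 4 means. CDX1 was listed at 0 in both SW480 means and was below 1 TPM in HCT116, as was VIL1. In SW480 VIL1 was at 12.5 TPM with USP51 and 7.55 TPM in NC. Of 10 endothelial markers, PECAM1, CDH5, VWF, TEK, TIE1, CLDN5 and EMCN lay below 1 TPM in every group. EGFL7 and ESAM, also expressed outside endothelium, and ROBO4 made up nearly all of the summed level of that list, 41.2 TPM in SW480 with USP51, 42.9 TPM in SW480 NC, 106.9 TPM in HCT116 with USP51 and 97.9 TPM in HCT116 NC. Fibroblast markers summed to 1.57 TPM in SW480 with USP51, 1.86 TPM in SW480 NC, 16.6 TPM in HCT116 with USP51 and 11.1 TPM in HCT116 NC, nearly all of it COL1A1, and their part in the results was not tested. Leukocyte markers summed to between 6.38 and 8.25 TPM, led by CD68, with PTPRC at or near 0. In bulk RNA, fewer expressing cells and less RNA per cell cannot be told apart.

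VEGFA was higher with USP51 in both lines, NRP1 was higher in SW480 and PGF in HCT116, all by less than 1.5-fold on the log2(TPM + 1) scale. VEGFB and ADM stayed within 10% of their NC level in TPM in both lines. At a threshold of 1.5-fold on that scale, and counting only genes with at least 1 TPM in a group compared, 0 of 6 measured members were higher with USP51 in SW480, against 0.534% of 12175 genes. NRP1 passed it under 3 alternatives, at log2 0.65 with curated transcripts only, 0.59 with TMM factors and 0.59 with RLE factors, against 0.50. None of the 6 was lower by that much, against 0.879% of genes. In HCT116 0 of 5 were higher, against 1.96% of 12393 genes, and 0 were lower, against 0.145%. At 1.25-fold, a threshold chosen after the values were seen, VEGFA and NRP1 were higher in SW480, 2 of 6 against 2.5% of genes, and PGF in HCT116, 1 of 5 against 8.58%, and none was lower (6.25% of genes in SW480 and 1.11% in HCT116). The counting interval lay above 1 for 2 of 6 members in SW480 (13.6% of genes) and for 2 of 5 in HCT116 (17.1% of genes), and below 1 for none in either line (14.2% of genes in SW480 and 11.7% in HCT116). Intervals on the reads of all 3 libraries would be narrower, so more members and genes could exclude 1. By level alone, 4 of 6 members lay above NC in SW480, against 38.8% of genes, and 4 of 5 in HCT116, against 60.8%.

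**Figure D1:**
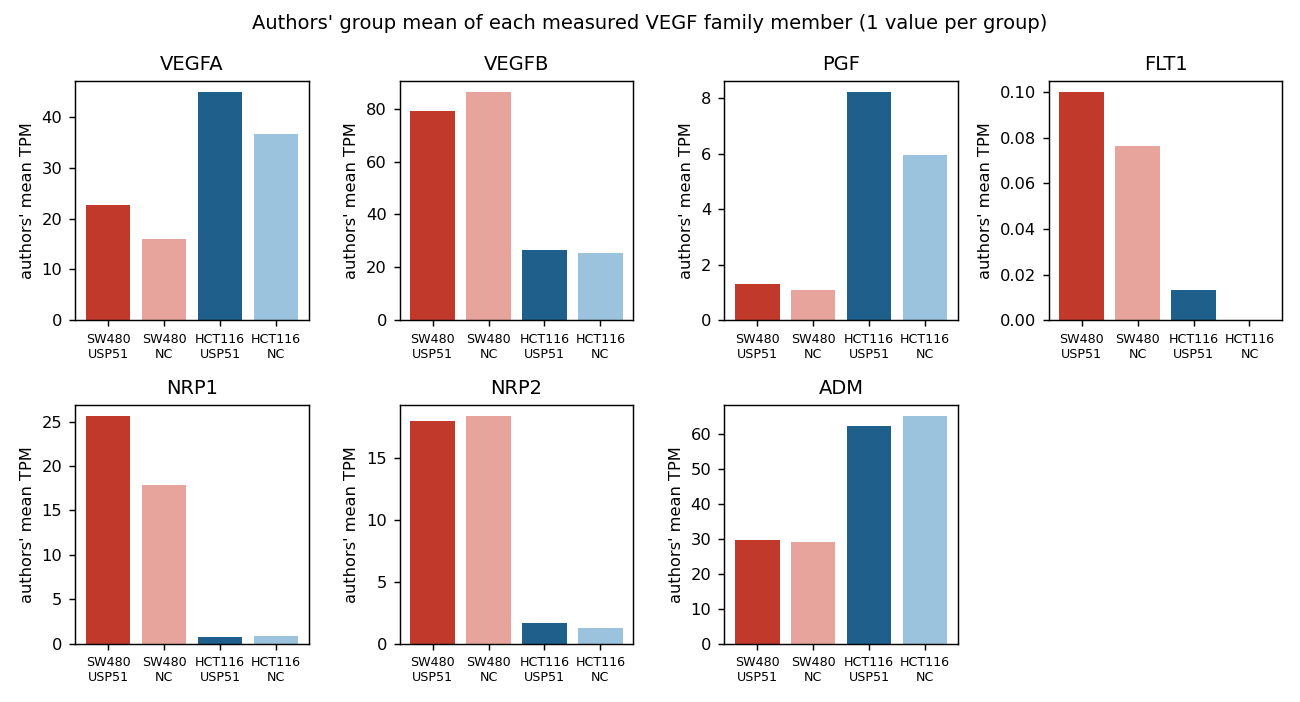
Authors' mean TPM (vertical axis, from 0, own scale per gene) of the 7 measured members in SW480 with USP51, SW480 NC, HCT116 with USP51 and HCT116 NC; each bar is 1 mean, with no error available. VEGFA, PGF and ADM are highest in HCT116, VEGFB, NRP1 and NRP2 in SW480, and FLT1 does not exceed 0.10 TPM.

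VEGFA, the main endothelial growth factor of the family (NCBI gene 7422, chromosome 6, 43770211 to 43786487, GRCh38), was at 22.6 TPM in SW480 with USP51 and 16.1 TPM in SW480 NC, a ratio of 1.46 (1.29 to 1.65). It was at 44.8 TPM in HCT116 with USP51 and 36.6 TPM in HCT116 NC, a ratio of 1.21 (1.11 to 1.31). The 4 means thus ran from SW480 NC through SW480 with USP51 and HCT116 NC to HCT116 with USP51, and each step exceeded counting error. The step between HCT116 NC and SW480 with USP51, 36.6 and 22.6 TPM, was the widest of the 3 by count ratio, at 1.62 (1.47 to 1.79).

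VEGFB, a ligand of FLT1 with a role in lipid handling and vessel survival (chromosome 11, 64234584 to 64239264), was the most abundant member in SW480. Its level was 79.2 TPM in SW480 with USP51 and 86.2 TPM in SW480 NC (ratio 0.948, 0.878 to 1.02). In HCT116 it was 26.4 TPM with USP51 and 25.2 TPM in NC (1.03, 0.896 to 1.19). Both intervals include 1, while the step between SW480 with USP51 and HCT116 with USP51, 79.2 TPM and 26.4 TPM, was a ratio of 3.15 (2.82 to 3.53).

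PGF, placental growth factor, also binds FLT1 (chromosome 14, 74941830 to 74955764). It stood at 8.20 TPM in HCT116 with USP51 and 5.93 TPM in HCT116 NC, a ratio of 1.35 (1.03 to 1.76). In SW480 it was at 1.31 TPM with USP51 and 1.09 TPM in NC on 23.0 and 18.0 counts, so the interval was wide (1.254, 0.648 to 2.47). A difference of the size seen in HCT116 was not detectable in SW480 at this depth.

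ADM (chromosome 11, 10305073 to 10307397) was listed with a single transcript. It was at 29.5 TPM in SW480 with USP51 and 29.01 TPM in SW480 NC (ratio 1.05, 0.909 to 1.21). In HCT116 it was at 62.2 TPM with USP51 and 65.1 TPM in NC (0.937, 0.848 to 1.04). ADM was the most abundant member in HCT116, and its interval included 1 in both lines.

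Of the receptor genes, FLT1, a VEGF receptor tyrosine kinase, was close to absent. Its means were 3.67 counts in SW480 with USP51 and 3 counts in SW480 NC. In HCT116 they were 0.333 counts with USP51 and 0 counts in NC. A count of 0 in a single library allows up to 3 counts, and a mean of 0 over 3 libraries allows fewer. No fold is given. The 3 FLT1 transcripts whose paired coding sequence stops before the kinase exons, which encode soluble decoy forms, summed to 0.0833 TPM in SW480 with USP51 and 0.030 TPM in SW480 NC. The other family receptors were also low. KDR, the principal VEGFA receptor of endothelium, was at 0.0167 TPM in SW480 with USP51 and listed at 0 in SW480 NC, and was at 0.120 TPM in HCT116 with USP51 and 0.147 TPM in HCT116 NC. FLT4, the receptor for VEGFC and VEGFD, was between 0.0467 and 0.210 TPM in all 4 means.

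The neuropilin genes differed most between the lines. NRP1 (chromosome 10, 33177493 to 33334667) was at 25.6 TPM in SW480 with USP51 and 17.8 TPM in SW480 NC, a ratio of 1.501 (1.36 to 1.65). It was below the filter in HCT116, with 0.750 TPM in cells with USP51 and 0.863 TPM in NC cells (ratio 0.839, 0.528 to 1.33). NRP2 (chromosome 2, 205682501 to 205798131) was at 18.0 TPM in SW480 with USP51 and 18.4 TPM in SW480 NC (0.948, 0.870 to 1.03). In HCT116 NRP2 was at 1.68 TPM with USP51 and 1.23 TPM in NC (1.28, 0.9497 to 1.73). The co-receptor that was higher with USP51 was thus NRP1 in the line that expresses it, and the interval of NRP2 included 1 in both lines.

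**Figure D2:**
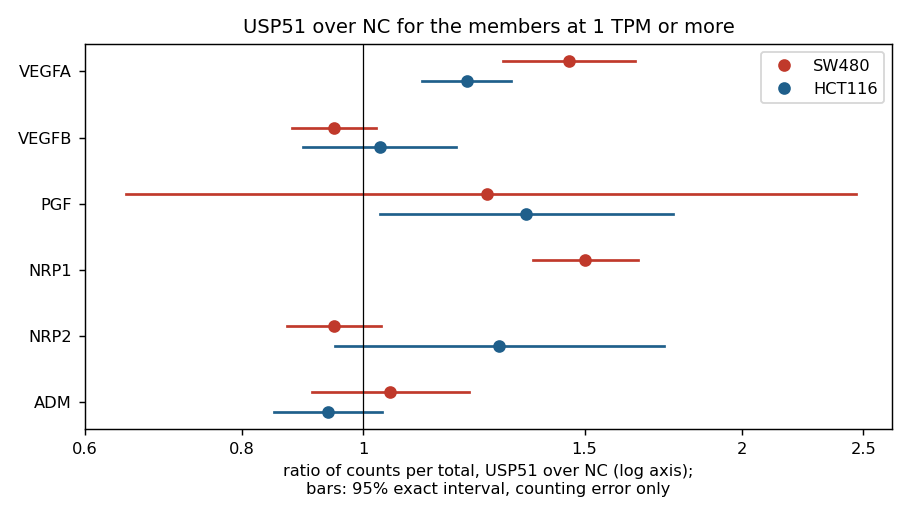
Ratio of counts per total, USP51 over NC (horizontal log axis), of the members with at least 1 TPM in a group compared, in SW480 (red) and HCT116 (blue); points are ratios of authors' means and bars 95% exact intervals of counting error only. The intervals of VEGFA in both lines, of NRP1 in SW480 and of PGF in HCT116 lie above 1, and all others include 1.

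In vector cells the lines themselves were far apart. SW480 NC over HCT116 NC gave 3 of 6 measured members at least 1.5-fold higher, against 22.6% of 13033 genes, and 3 at least 1.5-fold lower, against 27% of genes. The level of NRP1 was 17.8 TPM in SW480 NC and 0.863 TPM in HCT116 NC, a count ratio of 15.9 (11.8 to 22.04). NRP2 followed with 18.4 TPM in SW480 NC and 1.23 TPM in HCT116 NC (13.3, 10.6 to 16.9), and VEGFB with 86.2 TPM in SW480 NC and 25.2 TPM in HCT116 NC (3.43, 3.07 to 3.84). The lower genes in SW480 NC were PGF (1.09 TPM in SW480 NC and 5.93 TPM in HCT116 NC, ratio 0.182, 0.104 to 0.303), VEGFA (16.1 TPM in SW480 NC and 36.6 TPM in HCT116 NC, 0.423, 0.378 to 0.473) and ADM (29.01 TPM in SW480 NC and 65.1 TPM in HCT116 NC, 0.449, 0.396 to 0.508). SW480 therefore carried more of both co-receptors and less VEGFA than HCT116.

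The response to USP51 was compared between the lines as the difference of the log2(TPM + 1) ratios, HCT116 minus SW480, with no test. It was -0.18 for VEGFA, 0.18 for VEGFB, 0.26 for PGF, 0.29 for NRP2 and -0.09 for ADM. None of these 5 reached 1.5-fold upward (3.95% of 11332 genes) or downward (0.459%). The median over all genes was itself 0.08: genes lay slightly above their NC level in HCT116 (median 0.04) and slightly below it in SW480 (median -0.04). VEGFA and ADM were the members with the larger log2 value in SW480, and VEGFB, PGF and NRP2 those with the larger one in HCT116.

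The table resolves RefSeq transcripts, 48 of them for the 7 members, of which 36 could be paired with a GENCODE v29 transcript whose coding exons are known. The alternative coding exons of the VEGF ligands encode basic stretches that strengthen binding to heparan sulphate and neuropilins, and forms without them diffuse more freely. These exons are printed because they separate the transcript classes compared below; binding itself was not measured. Capitals mark in-frame lysine and arginine codons, and coordinates are GRCh38.
VEGFA exon 6, chr6:43780732-43780803, plus strand: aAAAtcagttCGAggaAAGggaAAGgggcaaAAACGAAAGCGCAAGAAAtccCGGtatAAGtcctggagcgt
VEGFA exon 7, chr6:43781956-43782087, plus strand: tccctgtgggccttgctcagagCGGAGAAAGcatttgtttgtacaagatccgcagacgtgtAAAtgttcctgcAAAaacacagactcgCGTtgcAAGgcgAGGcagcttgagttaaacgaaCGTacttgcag
VEGFB exon of the heparin-binding form, chr11:64237521-64237655, plus strand: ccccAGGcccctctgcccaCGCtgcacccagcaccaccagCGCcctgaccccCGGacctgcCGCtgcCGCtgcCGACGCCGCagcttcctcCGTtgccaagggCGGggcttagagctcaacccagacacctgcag
PGF insert exon, chr14:74946213-74946275, minus strand: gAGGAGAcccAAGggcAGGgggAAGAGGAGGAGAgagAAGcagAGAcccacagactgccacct
Lysine and arginine codons were 12 of 23 whole codons in VEGFA exon 6 and 9 of 43 in exon 7, against 65 of 395 over the whole coding sequence that holds both. They were 11 of 44 in the VEGFB exon, against 31 of 188 in its coding sequence, and 10 of 20 in the PGF insert, against 26 of 170.

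VEGFA was spread over 16 transcripts, but 2 held most of it. NM_001025370, whose coding sequence skips exons 6 and 7, carried 37.6% of VEGFA TPM in SW480 with USP51, 40.7% in SW480 NC, 45.1% in HCT116 with USP51 and 48.6% in HCT116 NC. NM_001287044, which keeps exon 7 and skips exon 6 and whose paired coding sequence begins in a later exon, carried 52.7% in SW480 with USP51, 52.9% in SW480 NC, 39.3% in HCT116 with USP51 and 40.5% in HCT116 NC. Transcripts with exon 7 summed to 13.8 TPM in SW480 with USP51 and 9.36 TPM in SW480 NC (ratio 1.55, 1.31 to 1.83), and those without it to 8.83 TPM in SW480 with USP51 and 6.69 TPM in SW480 NC (1.36, 1.14 to 1.63). In HCT116 the sums with exon 7 were 23.5 TPM with USP51 and 18.3 TPM in NC (1.29, 1.14 to 1.46), and without it 21.4 TPM with USP51 and 18.3 TPM in NC (1.15, 1.02 to 1.28). The sums with exon 7 include the transcripts that also keep exon 6. Those with exon 7 alone were at 12.1 TPM in SW480 with USP51 and 8.63 TPM in SW480 NC (1.45, 1.21 to 1.74). In HCT116 they were at 17.7 TPM with USP51 and 15.6 TPM in NC (1.09, 0.948 to 1.26), an interval that includes 1.

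A wider ratio was that of the 4 transcripts that keep both exons, the most basic forms of VEGFA. They summed to 1.65 TPM in SW480 with USP51 and 0.730 TPM in SW480 NC (ratio 2.30, 1.43 to 3.80), and to 5.77 TPM in HCT116 with USP51 and 2.69 TPM in HCT116 NC (2.12, 1.65 to 2.74). Their share of VEGFA was 7.30% in SW480 with USP51 and 4.55% in SW480 NC, and 12.9% in HCT116 with USP51 and 7.36% in HCT116 NC. NM_003376 held most of this, at 54.8 counts in SW480 with USP51 and 25.0 in SW480 NC, and at 164.6 counts in HCT116 with USP51 and 72.3 in HCT116 NC. This class was picked out after its values were seen. At the level of transcripts such ratios are not rare within 1 line. A count ratio of at least 2-fold with an interval above 1 was found for 4.85% of 29928 transcripts in SW480 and 5.83% of 31086 in HCT116. In both lines at once, as for NM_003376, it was found for fewer, 0.67% of 24917. Short reads are divided between overlapping transcripts by estimation, and the error of that division is not in the intervals.

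**Figure D3:**
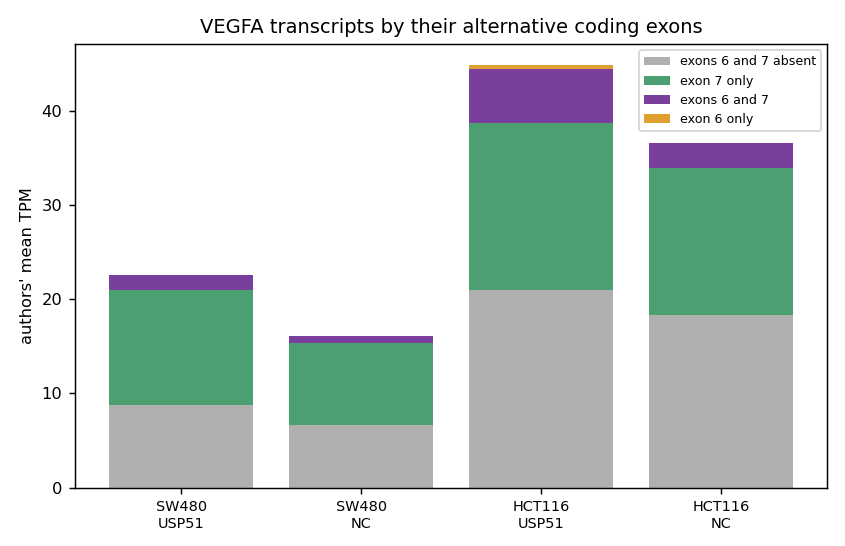
Authors' mean TPM of VEGFA (vertical axis) in SW480 with USP51, SW480 NC, HCT116 with USP51 and HCT116 NC, stacked by whether the coding sequence of the paired GENCODE transcript holds exon 6, exon 7, both or neither. The layer with both exons is 1.65 TPM with USP51 and 0.730 TPM in NC in SW480, and 5.77 TPM with USP51 and 2.69 TPM in NC in HCT116.

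The other ligands gave less. In VEGFB the transcript of the freely diffusing form, NM_003377, held 80.8% of TPM in SW480 with USP51 and 79.7% in SW480 NC, and 91.8% in HCT116 with USP51 and 84.5% in HCT116 NC. The heparin-binding form NM_001243733 was at 2.16 TPM in HCT116 with USP51 and 3.90 TPM in HCT116 NC (ratio 0.536, 0.335 to 0.842), and at 15.2 TPM in SW480 with USP51 and 17.5 TPM in SW480 NC (0.895, 0.748 to 1.07). PGF transcripts with the basic insert were at 2.90 TPM in HCT116 with USP51 and 2.15 TPM in HCT116 NC, and those without it at 5.30 TPM in HCT116 with USP51 and 3.78 TPM in HCT116 NC. Both PGF forms had ratios near that of the gene, 1.324 (0.844 to 2.09) with the insert and 1.36 (0.970 to 1.92) without it, and neither interval excludes 1.

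Neuropilin transcripts divide into those that run to the membrane and cytoplasmic exons and those whose coding sequence stops earlier, which encode secreted forms that bind ligand away from the cell. In SW480 the truncated NRP1 transcripts were at 10.4 TPM with USP51 and 6.02 TPM in NC (ratio 1.79, 1.44 to 2.21), and the full-length ones at 9.91 TPM with USP51 and 6.57 TPM in NC (1.56, 1.37 to 1.78). The remaining NRP1 transcripts, 8 predicted models with no GENCODE pair, were at 5.30 TPM with USP51 and 5.26 TPM in NC (1.20, 0.990 to 1.45). Their TPM was thus near level, while the ratio is of counts, which are not scaled to transcript length. Single models went both ways: XM_011519755 had 19.0 counts with USP51 and 43.1 in NC, and XM_017016865 had 94.5 with USP51 and 59.1 in NC. Of the full-length pair, NM_001244973 had 58.5 counts with USP51 and was listed at 0 in NC, and NM_003873 had 530.7 counts with USP51 and 370.1 in NC. Of the truncated pair, NM_001024628 had 241.4 counts with USP51 and 120.8 in NC (1.95, 1.56 to 2.45). NM_001024629 went the other way, with 9.78 counts with USP51 and 17.5 in NC (0.545, 0.225 to 1.25). As classes, truncated and full-length NRP1 transcripts were therefore both higher with USP51, with overlapping intervals, but not every transcript was. Protein forms were not measured. NRP2, level as a gene, was not level in its parts. Its truncated transcript NM_201264 was at 5.05 TPM in SW480 with USP51 and 3.59 TPM in SW480 NC (1.44, 1.09 to 1.92), while the full-length ones summed to 12.9 TPM with USP51 and 14.8 TPM in NC (0.903, 0.824 to 0.989). Among the full-length transcripts NM_201266 was at 173.8 counts with USP51 and 75.2 in NC (2.28, 1.73 to 3.03), and NM_003872, which differs from it by a few codons, at 342.9 counts with USP51 and 449.0 in NC (0.750, 0.650 to 0.865). These transcripts overlap almost wholly, and the division of reads between them is uncertain.

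**Figure D4:**
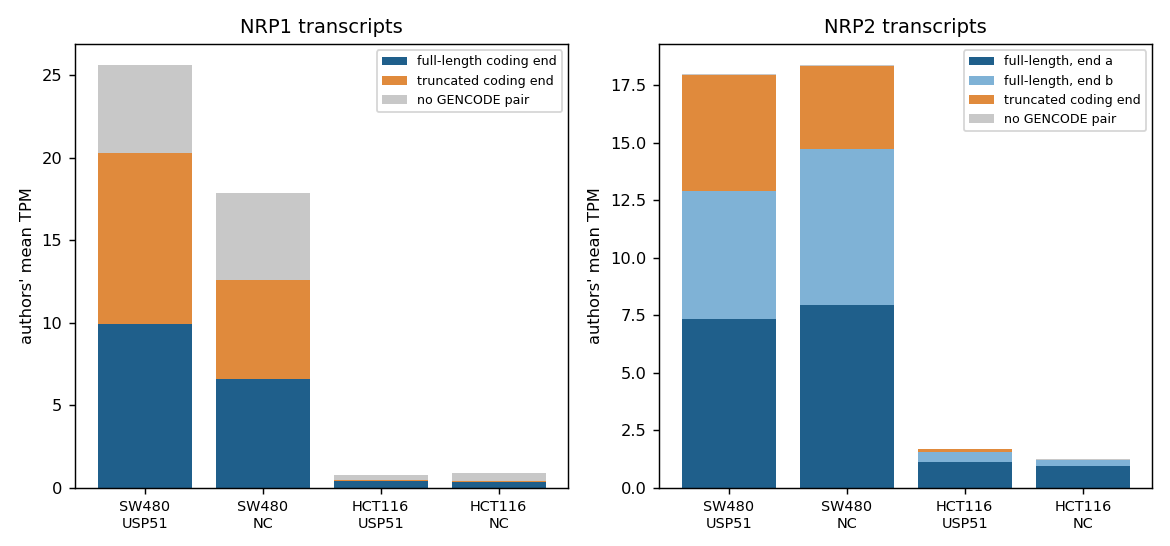
Authors' mean TPM (vertical axis, own scale per gene) of NRP1 and NRP2 in SW480 with USP51, SW480 NC, HCT116 with USP51 and HCT116 NC, stacked by the coding end of the paired GENCODE transcript. In SW480 the full-length and truncated NRP1 layers are 9.91 and 10.4 TPM with USP51, against 6.57 and 6.02 TPM in NC, and the HCT116 bars do not exceed 1.68 TPM.

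The partners of these genes were read from lists chosen with earlier results of these data known. Their 1.5-fold calls are on the log2(TPM + 1) scale, which shrinks ratios at low levels, while the ratios printed beside them are of counts. Among other VEGF and PDGF ligands and receptors, 1 of 5 measured genes was at least 1.5-fold higher with USP51 in HCT116 (1.96% of all genes) and none of 2 in SW480 (0.534%), and none was lower by that much in either line. That gene was PDGFB, a growth factor that recruits pericytes, at 14.0 TPM in HCT116 with USP51 and 8.40 TPM in HCT116 NC (ratio 1.68, 1.42 to 1.98). In SW480 PDGFB was at 30.04 TPM with USP51 and 34.04 TPM in NC (0.896, 0.819 to 0.980), the opposite direction. VEGFD stood at 1.03 TPM in HCT116 with USP51 and 0.983 TPM in HCT116 NC.

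Class 3 semaphorins compete with VEGF for neuropilins and signal through plexins. Of this list 1 of 6 measured genes was at least 1.5-fold higher in SW480 (0.534% of all genes) and 0 of 9 in HCT116 (1.96%), none was lower by that much, and the medians were 0.08 in SW480 and 0.33 in HCT116 against -0.04 in SW480 and 0.04 in HCT116 over all genes. SEMA3F, a ligand of NRP2, was at 3.11 TPM in SW480 with USP51 and 1.74 TPM in SW480 NC (1.82, 1.30 to 2.57), and at 16.7 TPM in HCT116 with USP51 and 12.4 TPM in HCT116 NC (1.27, 1.12 to 1.45). Other semaphorins, named after their values were seen, were mixed. SEMA3A, a ligand of NRP1, was at 1.91 TPM in SW480 with USP51 and 1.13 TPM in SW480 NC (1.76, 1.34 to 2.33), and at 11.9 TPM in HCT116 with USP51 and 7.84 TPM in HCT116 NC (1.503, 1.35 to 1.67). On the log2(TPM + 1) scale SEMA3A was at 0.45 in SW480 and 0.55 in HCT116, short of 1.5-fold in both. SEMA3B was at 31.4 TPM in SW480 with USP51 and 36.8 TPM in SW480 NC (0.881, 0.805 to 0.965), and at 12.5 TPM in HCT116 with USP51 and 8.24 TPM in HCT116 NC (1.47, 1.23 to 1.75). In HCT116 7 of the 9 measured genes of the list lay above NC (60.8% of all genes did) and 2 below it. Those below were SEMA3C, at 8.24 TPM with USP51 and 10.2 TPM in NC (0.796, 0.695 to 0.911), and SEMA3D, at 1.16 TPM with USP51 and 1.81 TPM in NC (0.616, 0.454 to 0.830). The signal-transducing partner PLXNA1 was at 28.0 TPM in SW480 with USP51 and 36.6 TPM in SW480 NC (0.789, 0.750 to 0.830), and PLXND1 at 11.8 TPM with USP51 and 10.8 TPM in NC (1.07, 0.960 to 1.19). In HCT116 PLXNA1 was at 20.6 TPM with USP51 and 19.1 TPM in NC, and PLXND1 at 22.8 TPM with USP51 and 18.0 TPM in NC.

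Adrenomedullin signals through CALCRL paired with RAMP2 or RAMP3. CALCRL was listed at 0 in both SW480 means and was at 0.567 TPM in HCT116 with USP51 and 0.620 TPM in HCT116 NC. RAMP2 did not exceed 0.650 TPM in any mean, and RAMP3 was not analysed here. RAMP1, which with CALCRL forms the receptor of a related peptide, was at 34.7 TPM in SW480 with USP51 and 32.3 TPM in SW480 NC, and at 41.2 TPM in HCT116 with USP51 and 33.5 TPM in HCT116 NC. Of 4 measured genes of the list 1 was at least 1.5-fold higher in SW480 (0.534% of all genes) and none in HCT116 (1.96%), and none was lower by that much. It was ADM2, the related peptide intermedin, at 2.51 TPM in SW480 with USP51 and 1.33 TPM in SW480 NC (1.95, 1.40 to 2.73).

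Of other angiogenic ligands, 1 of 10 measured genes was at least 1.5-fold higher in HCT116 (1.96% of all genes) and 1 of 9 at least 1.5-fold lower in SW480 (0.879%). ANGPTL4, a secreted lipase inhibitor, was at 22.4 TPM in HCT116 with USP51 and 8.78 TPM in HCT116 NC (2.51, 2.06 to 3.06). The chemokine gene CXCL8 was at 10.9 TPM in SW480 with USP51 and 17.2 TPM in SW480 NC (0.672, 0.547 to 0.825). Of the inhibitors of angiogenesis, all 6 measured in HCT116 lay above NC (60.8% of all genes did) and 2 by at least 1.5-fold (1.96%), the antiangiogenic matrix protein gene THBS1 (5.00 TPM with USP51 and 2.85 TPM in NC, 1.70, 1.41 to 2.07) and TIMP3 (4.12 TPM with USP51 and 2.39 TPM in NC, 1.69, 1.321 to 2.16). In SW480 0 of 8 inhibitors passed 1.5-fold in either direction, against 0.534% of all genes higher and 0.879% lower.

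Among genes that transcribe, splice and stabilise VEGFA mRNA, none of 13 passed 1.5-fold in either line or direction. Of all genes 0.534% were that much higher and 0.879% lower in SW480, and 1.96% higher and 0.145% lower in HCT116. The list medians were -0.08 in SW480 and -0.03 in HCT116, against -0.04 in SW480 and 0.04 in HCT116 over all genes. HIF1A was at 72.9 TPM in SW480 with USP51 and 81.5 TPM in SW480 NC, and at 84.1 TPM in HCT116 with USP51 and 85.0 TPM in HCT116 NC. None of 5 measured genes that process VEGFC and VEGFD passed 1.5-fold in either line, against the same shares of all genes. At such shares lists of 13 or 5 genes would mostly hold none. Hypoxia targets, the class to which VEGFA and ADM belong, were set beside them on the same scale. Their median was 0.20 in SW480 (-0.04 over all genes), with 2 of 14 at least 1.5-fold higher (0.534% of all genes). It was 0.65 in HCT116 (0.04 over all genes), with 8 of 15 (1.96%). In SW480 the log2 value of VEGFA, 0.47, was above that median and that of ADM, 0.03, below it, and in HCT116 both VEGFA, 0.29, and ADM, -0.06, were below it. CA9 was at 9.50 TPM in SW480 with USP51 and 2.78 TPM in SW480 NC, and EGLN3 at 13.3 TPM with USP51 and 8.54 TPM in NC. In HCT116 ANKRD37 was at 10.1 TPM with USP51 and 3.47 TPM in NC, and CA9 at 6.38 TPM with USP51 and 2.17 TPM in NC. ANKRD37 was not higher in SW480, at 41.6 TPM with USP51 and 45.7 TPM in NC (0.937, 0.779 to 1.13), and SLC2A1, the glucose transporter gene, was at 748.9 TPM with USP51 and 824.5 TPM in NC there (0.937, 0.921 to 0.954). In HCT116 NDRG1 was at 157.0 TPM with USP51 and 71.9 TPM in NC, and P4HA1 at 42.7 TPM with USP51 and 20.9 TPM in NC.

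**Figure D5:**
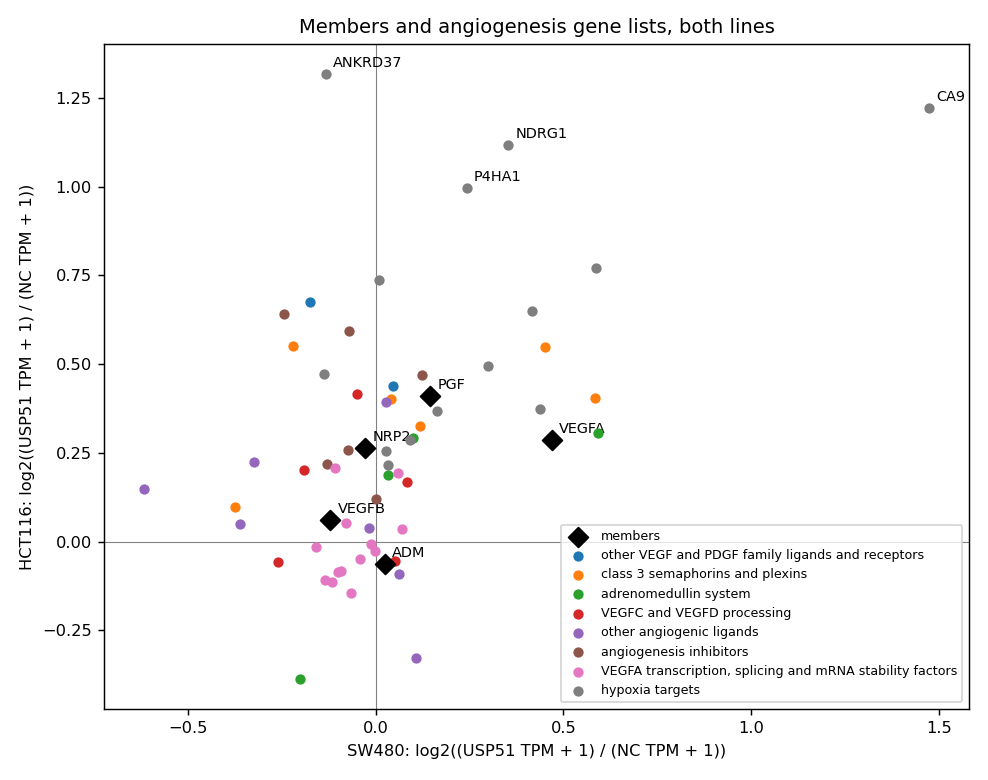
Log2((USP51 TPM + 1) / (NC TPM + 1)) in SW480 (horizontal) and HCT116 (vertical) for members (black diamonds) and 8 gene lists (colours), for genes with at least 1 TPM in a group compared in both lines, so NRP1 and FLT1 are not shown. VEGFA lies at 0.47 and 0.29 and ADM at 0.03 and -0.06, while the hypoxia targets CA9, NDRG1, P4HA1 and ANKRD37 lie near or above 1 in HCT116.

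The genes whose 4 means most resembled those of a member were sought by the distance between log2(TPM + 1) profiles, each centred on its own mean, among 13200 other genes. With only 4 points many genes lie close, and the distance is a description. Nearest to VEGFA were DDIT4 (distance 0.07), CARD10 (0.10) and TARS3 (0.13), and 54 genes lay within 0.25. DDIT4, a stress-induced inhibitor of mTOR signalling, is also in the list of hypoxia targets used above. It was at 30.3 TPM in SW480 with USP51 and 22.1 TPM in SW480 NC, and at 60.9 TPM in HCT116 with USP51 and 46.8 TPM in HCT116 NC. Nearest to PGF were HTR1D, SESTD1 and ENTPD2, with 113 genes within 0.25, to VEGFB STXBP6, CAVIN3 and ATPSCKMT, with 220, and to NRP2 PODXL2, SLC5A3 and SYNE3, with 32. No gene came within 0.25 of NRP1; UBXN10, IRX2-DT and TBXT were nearest, at 0.27, and all 3 were listed at 0 in both HCT116 means. As many as 848 genes lay within 0.25 of ADM, and none of them is named.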

How the data were processed

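Total RNA was extracted with TRIzol and sequenced on a BGISEQ instrument, per the labels' protocols. The submitters' processing notes name TopHat, DESeq 1.32.0 and hg38; neither their roles nor the counter or strand setting is known here. The deposited table holds the authors' group means as TPM, FPKM and estimated counts, per the file headers, for 84345 RefSeq transcripts. Each mean's name ends in E or C, letters without a definition in the labels; E was taken to be USP51 overexpression and C its vector control, on which every direction depends. The 36 single-library columns were not used.

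Transcripts were summed per gene and matched to RefSeq symbols (GRCh38.p14; 17672 of 17818). Exons came from GENCODE 29. Log2 ratios used TPM plus 1 and a minimum of 1 TPM in a group. Intervals (scipy 1.17.1) used rounded mean counts, taken as 1 library. They were tested on simulated single counts, which cannot show how well they fit means of 3 libraries. The intervals cover counting error only. PCR copies are not independent molecules, so the intervals can be too narrow even for that error. The planned edgeR test of libraries was not run, since their columns were not assigned to groups from their values. Members and lists were chosen with earlier results of these data known. Named genes were the members, USP51, fixed receptors and partners, up to 4 genes per list and line past 1.5-fold with 10 counts, and the 3 nearest profiles of members spanning at least 1 on the log2 scale; VEGFC, RAMP3 and LUM were not analysed here, and the profiles near ADM are not reported. Genes and transcripts outside this rule were named after their values were seen. FPKM, a pseudocount of 0.1, no filter, curated transcripts, CPM with and without edgeR 4.0.16 factors, and 2-fold were tried.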

Additional observations from a re-analysis of the deposited data

How the results depend on the processing

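The members past 1.5-fold in SW480 with USP51, 0 on TPM, became 1 with curated transcripts only, 1 with TMM factors and 1 with RLE factors, in each case NRP1 (log2 0.65, 0.59 and 0.59, against 0.50), and 2 at a threshold of 1.25-fold. In HCT116 the count of 0 became 1 at 1.25-fold. The other counts were within 1.5 times of the reported ones under every alternative run, and 6 single log2 values moved from the reported ones by more than the half-width of the log2 counting interval, the curated NRP1 value and 5 of the neuropilins between the lines. The cause was not tested. NRP2 in SW480 changed sign with FPKM, to 0.01 from -0.03. The largest shift of the median of all genes under another scaling was 0.0911, with RLE factors between the lines. No paired analysis was possible because the library columns carry no replicate number or label, and no library was left out for the same reason. Depth limits PGF in SW480, NRP1 in HCT116 and FLT1 in both lines.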
